A study of Mus musculus with 10 samples.

Results

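The distal intergenic sites were the 828 regions bound by estrogen receptor α (ERα) that lay outside genes and more than 50 kb from any annotated start site. They were 17.5% of the 4722 ERα regions found in at least 2 of 8 ChIP-seq libraries. The members were chosen by measured values, namely the called peaks. Merging overlapping peaks (1 bp or more) over the 8 lists gave 8072 regions, of which those called in at least 2 libraries entered the set. A member's centre lay outside every curated RefSeq transcript, its promoter (1 kb upstream) and the first 1 kb past its end. Every one of the 828 members was analysed, with no filter on low values.

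The chromatin came from 2 hypothalamic nuclei, the arcuate nucleus and the anteroventral periventricular nucleus (AVPV), of female C57BL/6 mice. All animals were ovariectomised and carried an implant of 17β-estradiol (0.1 mg/mL in sesame oil), were injected with estradiol benzoate (0.05 mg/kg) and gave tissue 28 h later. No group without estradiol was among the peak lists, so nothing here measures a response to the hormone. Each nucleus had 4 libraries made from pooled chromatin, and no source used here states that the pools were separate. SDs and p-values are therefore over libraries, not over animals, and dissected tissue holds every cell type of the nucleus. The input libraries were not analysed here.

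ERα is a nuclear receptor that binds DNA directly as a dimer when estradiol occupies it. Its classical site is the estrogen response element, an inverted repeat of a half-site with a spacer between the copies. Much ERα binding in other tissues lies far from promoters, in enhancers that can act over long distances through chromatin loops. In the arcuate and the AVPV, ERα takes part in the feedback of estradiol on the neurons that control reproductive hormones. The nearest gene names a position below and is not shown to be a target.

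The sequences that follow show the response element at the sites on which the results turn, read from the forward strand of GRCm38 (mm10). Each stretch holds 75 bases, with the best match to the 15-base element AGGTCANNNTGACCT in capitals. At most 2 mismatches were allowed over its 12 fixed bases, within 100 bp of the summit of the strongest peak. The first set holds the 6 members with peaks in all 8 libraries that ranked highest in fold enrichment.
Rybp site, chr6:100060030-100060104: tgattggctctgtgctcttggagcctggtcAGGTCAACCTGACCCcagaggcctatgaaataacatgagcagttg
Nbea site, chr3:56687051-56687125: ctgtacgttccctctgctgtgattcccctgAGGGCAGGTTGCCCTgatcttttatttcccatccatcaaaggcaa
5430427M07Rik site, chr12:90915886-90915960: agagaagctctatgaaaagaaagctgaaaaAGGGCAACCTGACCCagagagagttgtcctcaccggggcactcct
Gm10823 site, chr16:28089550-28089624: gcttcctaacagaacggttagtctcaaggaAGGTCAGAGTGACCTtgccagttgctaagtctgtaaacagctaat
Med13l site, chr5:118458818-118458892: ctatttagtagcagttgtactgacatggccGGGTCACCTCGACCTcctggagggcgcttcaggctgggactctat
Clec14a site, chr12:58526604-58526678: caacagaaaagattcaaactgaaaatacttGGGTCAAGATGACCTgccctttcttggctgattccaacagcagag

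Counted from 1 at the first base of the capitals, the Rybp element differed from the full palindrome by T15C and the Clec14a element by A1G. The Nbea element had T4G and A12C, the Med13l element A1G and T10C, and the 5430427M07Rik element T4G and T15C. The Gm10823 element had no mismatch. The next set holds the other members with a perfect element that were seen in all 8 libraries with the highest mean percentile.
Calb1 site, chr4:15657836-15657910: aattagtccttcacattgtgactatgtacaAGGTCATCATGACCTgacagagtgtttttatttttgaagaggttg
Znrf2 site, chr6:54759718-54759792: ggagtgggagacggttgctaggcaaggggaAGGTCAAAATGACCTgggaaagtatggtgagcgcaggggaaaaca
4930520P13Rik site, chr13:70307347-70307421: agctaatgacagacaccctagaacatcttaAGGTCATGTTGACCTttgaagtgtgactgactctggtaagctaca
Ahi1 site, chr10:20886157-20886231: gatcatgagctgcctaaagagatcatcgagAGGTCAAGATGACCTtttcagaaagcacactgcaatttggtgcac

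Another set shows sites called in every library of 1 nucleus and in 0 of 4 of the other. The first 2 were arcuate sites and the last 2 AVPV sites.
4930413E15Rik site, chr5:118812980-118813054: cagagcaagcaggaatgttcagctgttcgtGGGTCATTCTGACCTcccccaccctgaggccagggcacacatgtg
Mir6380 site, chr3:137727676-137727750: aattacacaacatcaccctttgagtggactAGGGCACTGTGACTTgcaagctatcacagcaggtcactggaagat
Manea site, chr4:26452251-26452325: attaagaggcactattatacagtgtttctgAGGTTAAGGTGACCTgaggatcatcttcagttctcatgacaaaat
Nudt12 site, chr17:60223593-60223667: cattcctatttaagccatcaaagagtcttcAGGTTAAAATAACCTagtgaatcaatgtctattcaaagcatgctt

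The last set shows a site beside the progesterone receptor gene and 3 of the near-identical sites inside the immunoglobulin κ locus, which are described further on.
Pgr site, downstream, chr9:8970478-8970552: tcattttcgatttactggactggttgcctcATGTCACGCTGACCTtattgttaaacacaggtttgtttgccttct
Igkv4-77 site, chr6:69111093-69111167: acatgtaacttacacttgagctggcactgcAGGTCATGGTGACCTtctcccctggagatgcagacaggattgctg
Igkv4-54 site, chr6:69631837-69631911: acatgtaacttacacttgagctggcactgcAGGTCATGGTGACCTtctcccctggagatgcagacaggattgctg
Igkv4-72 site, chr6:69227043-69227117: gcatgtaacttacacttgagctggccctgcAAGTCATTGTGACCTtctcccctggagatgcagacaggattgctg

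The lists held 2367 to 4079 peaks a library, and the read depth behind them is not in the lists. Absence of a call does not show absence of binding. Arcuate library 4 stood apart, with 9.23% of its peaks in members and 25.1% of its peaks in regions seen in no other library. The first share was 11.4% to 16.6% in the other 7 libraries and the second 4.94% to 14.8%. Several results are given with and without this library, but the groupings of members by nucleus and by distance are given only with it.

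The members spread over long distances. The nearest start site lay at a median of 148 kb, with the middle 50% between 83.5 and 280.4 kb and the farthest at 1828 kb. For 497 members (60.0%) it belonged to a protein-coding transcript, for 29 to a microRNA precursor and for 302 to another non-coding RNA. The nearest protein-coding start was at a median of 204 kb. Just inside the limit were sites at 50.02 kb from Tmem170b, 50.1 kb from Gm4719 and 50.3 kb from Mir124a-3. Just outside it were regions at 49.7 kb from Trh, the gene of thyrotropin-releasing hormone, at 49.7 kb from 4933432K03Rik and at 49.7 kb from Gm4419.

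**Figure D1:**
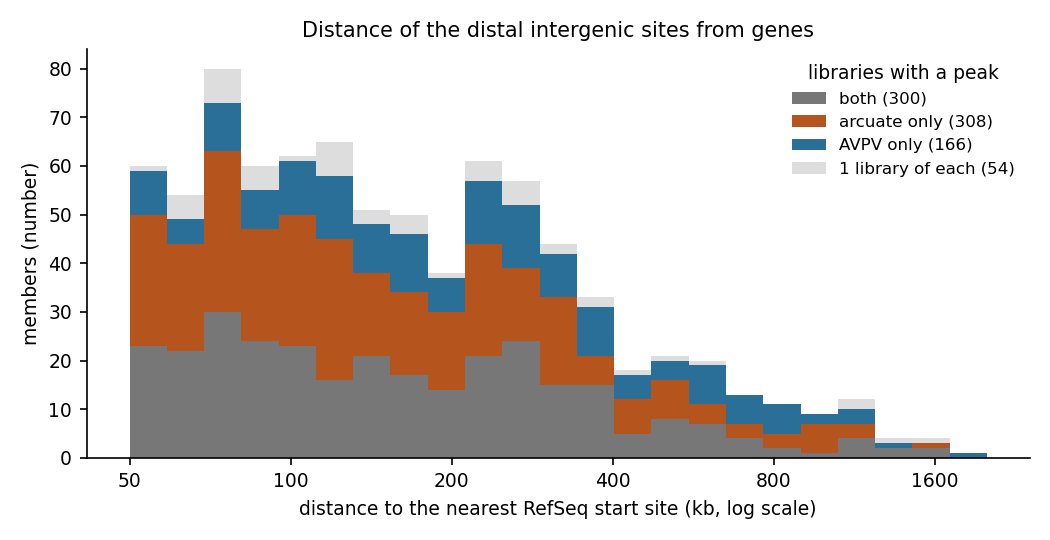
Number of members by distance of the region's centre to the nearest RefSeq start site (kb, log scale), stacked by the libraries that had a peak. The median lies at 148 kb and the farthest member at 1828 kb.

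Sequence beyond 50 kb from a start site and outside genes makes up 918 Mb, or 35.9% of the sequenced genome without the Y chromosome. It held 0.902 members per Mb, against 1.21 regions per Mb of intergenic sequence within 50 kb and 1.84 per Mb overall. By chromosome, the density ran from 0.560 per Mb on chromosome 7 to 1.53 on chromosome 19 among the autosomes and was 0.270 on the X chromosome. The members fell into 561 intervals between neighbouring start sites, of which 400 held a single member and 31 held 4 or more.

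The class depends on the annotation. With predicted RefSeq models added, 467 of the 828 members kept the class, 250 moved within 50 kb of a start site and 85 became intronic. With GENCODE M21 transcripts, 316 kept it, 362 moved within 50 kb and 125 became intronic. At the centre of 84 members RefSeq has a gene record of a long non-coding RNA, at 14 of a protein-coding gene, and at 17 of an immunoglobulin V segment or V-segment pseudogene.

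The first comparison asked whether distant sites were more used in 1 nucleus. Arcuate libraries 1 to 4 had peaks at 638, 562, 457 and 315 members. AVPV libraries 1 to 4 had peaks at 354, 365, 379 and 501. The groups overlapped, with means of 493 ± 140 and 400 ± 68 (SD, n = 4 each), and did not differ beyond that spread (p = 0.286, exact permutation test, two-sided). The difference of 93.2 members became 22.8 without arcuate library 1, 47.8 without arcuate library 2 and 149 without arcuate library 4 (exact permutation tests, p = 0.714, 0.543 and 0.0857).

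As a share of all peaks of the library, members took 15.7%, 14.5%, 14.3% and 9.23% in the arcuate and 15.1%, 14.5%, 11.4% and 16.6% in the AVPV. The means were 13.4% ± 2.9 and 14.4% ± 2.2 (SD, n = 4 each; exact permutation test, p = 0.600). The difference changed sign without arcuate library 4 or without AVPV library 4. Promoter peaks took 28.4% of arcuate library 4, 22.4% to 26.7% of the other arcuate libraries and 26.7% to 33.8% of the AVPV libraries, and their part in the result was not tested.

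**Figure D2:**
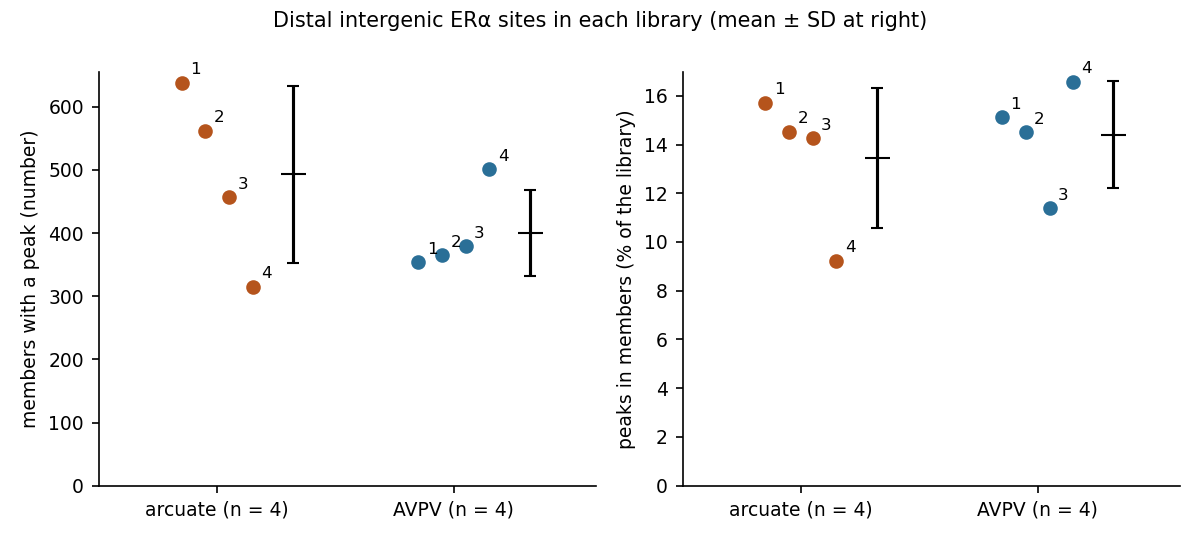
Members with a peak (left, number) and peaks lying in members (right, % of the library's peaks) for each library, numbered by replicate, with the mean ± SD beside them. The nuclei overlap in both panels and arcuate library 4 is the lowest in both.

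Of the 828 members, 308 (37.2%) were arcuate sites, with peaks in at least 2 arcuate and fewer than 2 AVPV libraries, against 32.2% of all regions. AVPV sites by the same rule numbered 166 (20.05%), against 15.4% of all regions. Sites of both nuclei numbered 300 (36.2%), against 45.3% of all regions, and 54 members had a peak in 1 library of each. Intergenic sites within 50 kb had a like makeup, with 41.3% arcuate, 17.9% AVPV and 34.9% shared. Intronic sites had 39.4%, 16.7% and 38.6%, while 62.1% of promoter sites were shared.

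Distance and nucleus moved together in these lists. AVPV sites were 12.7% of the 275 members between 50 and 100 kb, 21.3% of the 235 between 100 and 200 kb, 22.0% of the 205 between 200 and 400 kb and 31.9% of the 113 beyond 400 kb. Arcuate sites were 41.8%, 38.7%, 32.7% and 31.0% of the same groups. Counted by library, the median distance of the members with a peak was 129 to 135 kb in the 4 arcuate libraries and 151 to 164 kb in the 4 AVPV libraries. The libraries of the nuclei did not overlap in this measure. It was chosen after the data were seen and was not tested.

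Response elements were the feature that most members shared. An element lay within 100 bp of the summit at 473 members, or 57.1% (95% Wilson interval, 53.7 to 60.5), and windows 5 kb to either side held 1 in 1.57% of 1656 cases. The share was 46.7% (43.0 to 50.5) of the 687 intergenic sites within 50 kb, 49.0% (46.5 to 51.5) of 1514 intronic sites and 3.53% (2.66 to 4.68) of 1302 promoter sites. Without regions of near-identical summit windows, the share was 57.5% of members and 50.2% of intergenic sites within 50 kb. Intervals here cover counting error only.

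In each library the members exceeded the near intergenic sites in this share. Member peaks had an element in 60.5%, 60.9%, 59.3% and 61.6% of cases in arcuate libraries 1 to 4 and in 64.4%, 60.5%, 59.6% and 59.7% in AVPV libraries 1 to 4. Near intergenic peaks had 1 in 43.3% to 54.4%. The mean difference was 11.5 ± 4.3 percentage points (SD, n = 8 libraries), higher in 8 of 8 (exact sign-flip permutation test, p = 0.00781, the smallest that 8 libraries allow, and adjusted p = 0.00781 over 3 classes). Against intronic sites it was 9.33 ± 2.29 points and against promoter sites 56.9 ± 2.0 points, each in 8 of 8 libraries with the same p. Libraries of a nucleus share sites, so these tests measure constancy over libraries. With GENCODE M21 transcripts the difference from near sites was 5.74 points and with at most 1 mismatch 4.16 points, again with p = 0.00781 by the exact sign-flip permutation test. Without regions of near-identical summit windows the difference was 9.08 points, and without arcuate library 4 it was 10.5 points.

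**Figure D3:**
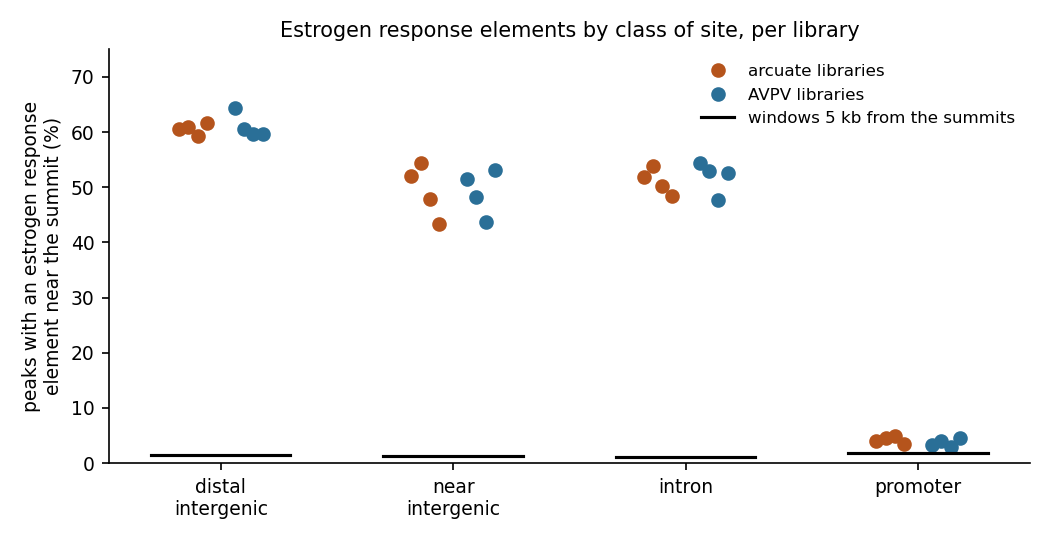
Share of peaks with an estrogen response element within 100 bp of the summit (%), per library, for 4 classes of site, with the share in windows 5 kb away as a line. The distal intergenic points lie between 59.3% and 64.4%, above every near intergenic and intronic point.

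The nuclei did not differ detectably in the element share of their member peaks. It was 60.6% ± 1.0 in the arcuate and 61.1% ± 2.3 in the AVPV (SD, n = 4 each; exact permutation test, p = 0.771). The sign of the difference depended on single libraries and on the annotation.

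Perfect elements were present at 49 members, elements with 1 mismatch at 161 and with 2 at 263, while 355 had none. The best element was centred a median of 23 bp from the summit, and within 25 bp at 55.2% of the 473 members. Mismatches were unevenly placed along the half-site AGGTCA, counted from its outer end. The outer A carried 34.4% of all mismatches, the G after it 21.3% and the T at position 4 19.2%. The G at position 3 carried 6.55%, the C at position 5 9.46% and the A at position 6 9.17%. The list of best matches was chosen by mismatch number, so these shares are a description of it.

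**Figure D4:**
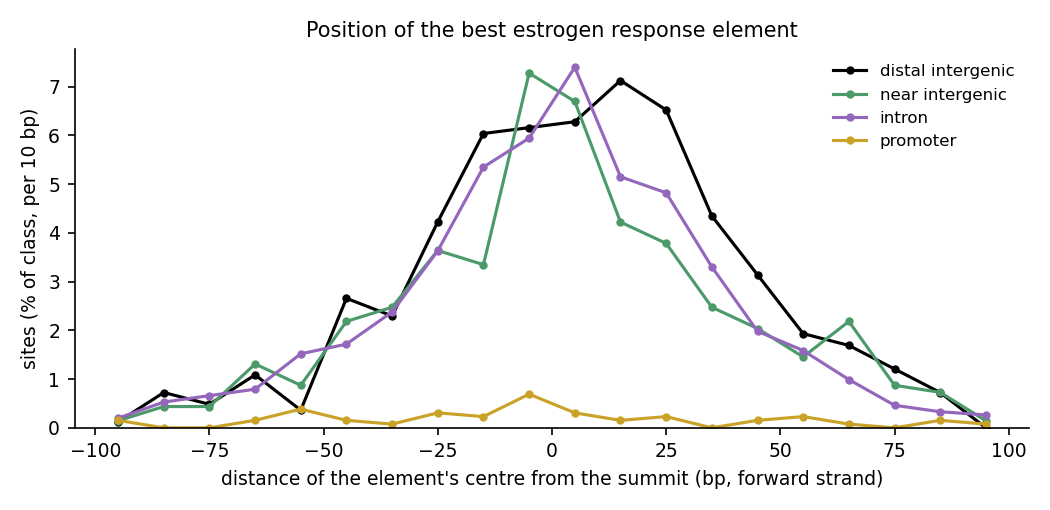
Position of the best element relative to the peak summit (bp) as a percentage of the sites of each class, in bins of 10 bp. The intergenic and intronic curves peak near the summit and the promoter curve stays under 1%.

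Members with an element ranked higher than members without. The median percentile of fold enrichment within a library's list was 62.6 against 49.4 in arcuate library 1, 64.3 against 46.8 in library 2, 60.0 against 43.2 in library 3 and 68.2 against 48.0 in library 4. In AVPV libraries 1 to 4 it was 53.7 against 40.4, 56.1 against 41.7, 58.3 against 42.4 and 60.2 against 44.8. The difference was 15.9 ± 2.3 points (SD, n = 8), positive in 8 of 8 libraries (exact sign-flip permutation test, p = 0.00781). The fold enrichment behind these ranks is a ratio over the local background of each list, with 651 to 799 distinct values a list and therefore many ties.

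Sites seen in more libraries also held an element more often. It was present at 45.9% (39.5 to 52.5) of the 222 members of 2 libraries, 53.9% of the 165 of 3, 54.6% of the 119 of 4, 60.5% of the 81 of 5, 55.2% of the 58 of 6, 70.5% of the 61 of 7 and 76.2% (67.9 to 82.9) of the 122 of 8. Among 595 regions of the same position seen in a single library, which are no members, it was 29.4% (25.9 to 33.2). A strong peak is called in more libraries, so this gradient and the ranks above are not independent. The element share did not follow distance, with 56.0%, 54.9%, 62.4% and 54.9% from the nearest to the farthest of the 4 distance groups. The share of members seen in all 8 libraries was 19.6% (15.4 to 24.7) between 50 and 100 kb, 15.3%, 12.2% and 6.19% (3.03 to 12.2) beyond 400 kb.

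Peak strength gave a weaker contrast with other classes. The median percentile of members exceeded that of near intergenic sites by 5.66 ± 3.23 points (SD, n = 8), higher in 7 of 8 libraries and equal in arcuate library 1 (exact sign-flip permutation test, p = 0.0156, adjusted p = 0.0469 over 3 classes). The difference depended on which sites were counted. Among near intergenic sites, 58 had a summit window nearly identical to that of another region, with a median mean percentile of 3.59 against 42.7 for the rest. Without such copies, of which 37 were members, the difference was 2.65 points (exact sign-flip permutation test, p = 0.125), and with GENCODE M21 it was 1.44 (p = 0.469 by the same exact test). Against intronic sites the difference was -0.72 ± 1.94 points (exact sign-flip permutation test, adjusted p = 0.5). The 2 medians were equal in every arcuate library and in AVPV library 1. With so many differences of 0 this test could not pass, so it cannot decide. Against promoter sites it was -5.36 ± 4.80, lower in 6 of 8 libraries (exact sign-flip permutation test, adjusted p = 0.0469).

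Base composition and other motifs were compared with near intergenic sites over 14 features, with adjustment over all of them. Member summits were poorer in GC, at 44.5% ± 1.4 against 48.5% ± 0.9 (SD, n = 8), and in CpG, with an observed over expected ratio of 0.171 ± 0.011 against 0.247 ± 0.027. Both were lower in 8 of 8 libraries (exact sign-flip permutation test, adjusted p = 0.0273). The GC box GGGCGG, bound by Sp factors, was in 3.21% ± 0.79 of member windows and 7.26% ± 2.02 of near windows with the same adjusted p in an exact sign-flip permutation test. Soft-masked repeat sequence was higher at members, with library medians averaging 6.09% against 1.49% (exact sign-flip permutation test, adjusted p = 0.0365). Set against windows 5 kb away, counted by site and not tested, member summits were richer in GC (44.3% against 42.3%) and in CpG (0.164 against 0.141). They held the GC box more often (3.14% against 1.87%) and less soft-masked sequence (7.96% against 20.9%).

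The glucocorticoid response element, spelled GNACANNNTGTNC on both strands, was in 3.61% ± 0.46 of member windows against 1.75% ± 0.42 of near windows, higher in 8 of 8 libraries (exact sign-flip permutation test, adjusted p = 0.0273). By site it was at 26 members (3.14%), at 1.33% of all regions and in 0.242% of windows 5 kb away. None of the 26 matches shared bases with an estrogen response element found here. The extended half-site TNAAGGTCA was in 4.51% ± 0.99 against 3.59% ± 0.45, higher in 7 of 8 libraries (exact sign-flip permutation test, adjusted p = 0.0365), and at 23 of its 42 members it overlapped an estrogen response element. The AP-1 motif TGANTCA was in 10.7% ± 0.5 against 10.3% ± 0.9 and did not pass (exact sign-flip permutation test, adjusted p = 0.428). It was at 82 members, and in 5.98% of windows 5 kb away. The forkhead motif TGTTTAC (3.13% against 3.02%), the homeobox motif TAATTA (4.80% against 5.39%), the E-box CAGATG (14.4% against 13.5%), the RFX motif GTTNCCATGGNAAC (0.292% against 0.203%) and the CTCF motif (0.129% against 0.208%) did not pass either. The NFI palindrome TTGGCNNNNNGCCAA was in no window. Of the 14 features 6 passed, and 0 passed without arcuate library 1 or without arcuate library 2, against 5 without any other single library. With 7 libraries the exact sign-flip permutation test allows no p below 0.0156. A few features at that value cannot pass after adjustment over 14, so features pass or fail together. The fall to 0 does not measure how far a feature depends on these libraries. Peak width was 269 ± 10 bp against 277 ± 15 bp (exact sign-flip permutation test, adjusted p = 0.297).

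None of the 14 features passed between the nuclei, and 2 had an unadjusted p under 0.05. Member peaks held 45.6% ± 0.6 GC in the arcuate and 43.3% ± 0.4 in the AVPV, and the GC box in 3.78% ± 0.43 and 2.63% ± 0.62 (SD, n = 4 each). In both the libraries of the nuclei did not overlap (exact permutation test, p = 0.0286, which is the lowest value possible with 4 and 4, adjusted p = 0.200). These 2 features could not pass alone, since most of the 14 would have had to reach that lowest value. The adjusted test cannot decide whether the 2 differ between the nuclei.

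Peaks at 122 members were present in all 8 libraries. Their summits agreed closely, with a median spread over the libraries of 73.5 bp. The strongest, by mean percentile, was a site 227.4 kb past the start of Rybp, a component of Polycomb complexes, at chr6:100059174-100060813. Its fold enrichment was 30.6, 31.3, 22.8 and 25.3 in arcuate libraries 1 to 4 and 32.4, 38.2, 41.9 and 35.8 in AVPV libraries 1 to 4. It ranked at the 97.3 to 99.4 percentile in every list.

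A site 503 kb upstream of Nbea, which encodes a protein of synaptic membrane trafficking, had fold enrichments of 32.6, 20.2, 24.1 and 13.3 in the arcuate and 19.6, 22.0, 20.96 and 30.4 in the AVPV. The site 240 kb past the start of the non-coding gene Gm10823, on the side facing Fgf12, carried the perfect element shown above. It had 15.8, 19.2, 14.0 and 11.2 in the arcuate and 25.9, 21.7, 30.4 and 39.0 in the AVPV. Every AVPV fold of this site was above every arcuate fold, but the percentiles overlapped, at 88.4 to 96.98 and 96.9 to 99.5.

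The site 102 kb upstream of Med13l, a subunit of the Mediator complex, had fold enrichments of 35.2, 30.9, 25.7 and 22.7 in the arcuate and 15.2, 14.9, 15.9 and 16.3 in the AVPV. The groups did not overlap, in fold or in percentile. The site 130 kb upstream of 5430427M07Rik, 177 kb from Dio2, the thyroid hormone-activating deiodinase, ranked between 93.5 and 97.7 in every list. The site 257 kb upstream of Clec14a, an endothelial lectin, ranked between 89.7 and 97.8.

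Ranks at the 122 shared members were compared between nuclei. Every arcuate percentile was above every AVPV percentile at 28 members (23.0%), against 14.2% of all 1089 regions seen in 8 libraries. The reverse held at 6 members (4.92%), against 6.80% of all such regions. No region passed an exact permutation test after adjustment over the 1089 (lowest adjusted p = 0.136), and 34 members had the smallest unadjusted p of 0.0286. No p can be lower with 4 and 4 libraries, so none could pass after adjustment unless most of the 1089 regions separated completely. The adjusted test therefore cannot decide for single regions. The 34 became 16 for members beyond 100 kb, which leaves out the 54 of the 122 that lay between 50 and 100 kb. With GENCODE M21 the 34 became 8, in a set of 321 members rather than 828. Leaving out a library loosens this criterion, and without arcuate library 4, 38 members had higher arcuate and 12 higher AVPV ranks.

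Among the 28 were the Med13l site and a site 198 kb upstream of Nmur2, a neuromedin U receptor, at chr11:56238802-56239132. The latter ranked at 93.8, 88.6, 90.7 and 87.3 in the arcuate and at 80.1, 74.8, 56.2 and 83.4 in the AVPV. Among the 6 was a site 301 kb from Brinp2, a gene of the nervous system inducible by retinoic acid, at chr1:158054903-158055436. It had fold enrichments of 9.42, 7.75, 10.8 and 5.77 in the arcuate and 13.3, 12.4, 20.03 and 26.7 in the AVPV.

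Presence in 4 of 4 libraries of a nucleus and 0 of 4 of the other is the most extreme outcome for peak calls. It was met by 42 members (5.07%) for the arcuate, against 3.64% of all regions, and by 18 members (2.17%) for the AVPV, against 1.40% of all regions. Leaving out a library loosens the criterion. The counts were 105 and 19 without arcuate library 4, and the AVPV count was 35 without arcuate library 1, 30 without AVPV library 1 and 28 without AVPV library 3. With GENCODE M21 they were 14 and 10, of 321 members.

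The arcuate site with the highest floor was 139 kb upstream of the non-coding gene 4930413E15Rik and 252 kb from Med13l, at chr5:118812886-118813481. Its fold enrichment was 10.8, 11.8, 13.03 and 10.5 in the arcuate libraries. A site 52.0 kb past the start of 1700036G14Rik, at chr3:85369224-85369842, had 15.1, 17.8, 13.03 and 9.74 and no response element. The others named by the rule lay 55.9 kb from Mir6380, 69.0 kb upstream of Pdzrn3, a ubiquitin ligase gene, and 103 kb upstream of 4933406K04Rik, with percentiles from 65.7 to 90.6.

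In the AVPV, the site with the highest floor was 1210 kb upstream of Nudt12, at chr17:60223492-60223921. Its fold enrichment was 9.41, 8.09, 7.82 and 11.6. A site 66.2 kb past the start of Nat3 had 8.34, 10.2, 10.2 and 13.6 and no element. A site 106 kb upstream of Manea had 7.06, 8.67, 6.88 and 9.36. Sites 119 kb upstream of Rgs18, a regulator of G-protein signalling, and 50.3 kb upstream of Mir124a-3, which encodes a microRNA abundant in neurons, ranked lower, from 36.2 to 73.2.

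**Figure D5:**
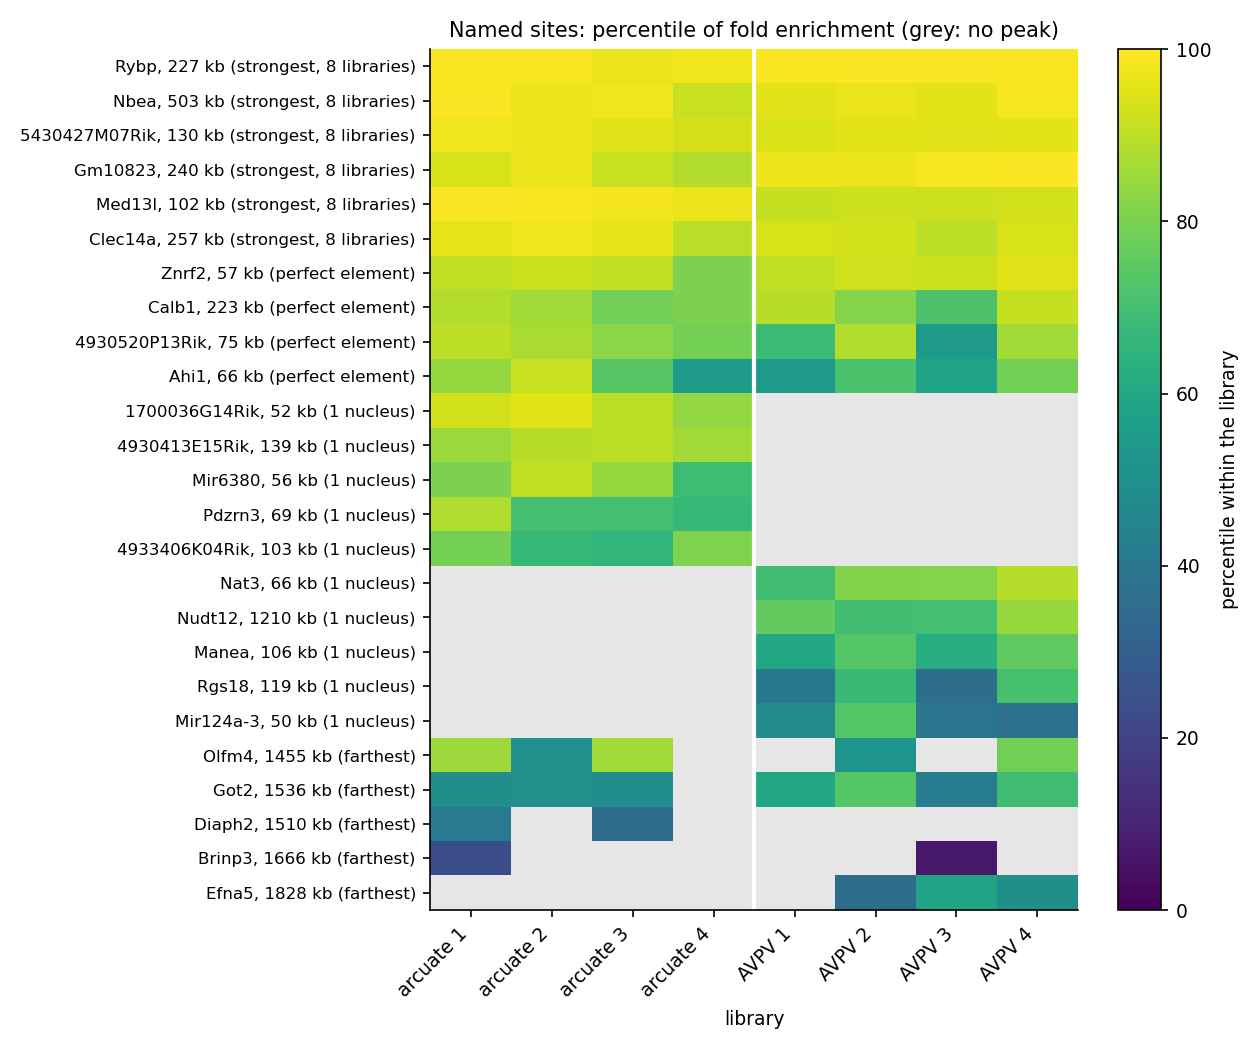
Percentile of fold enrichment within each library (colour) for named members in the 8 libraries, with grey where no peak was called. The 6 strongest sites are above the 88 percentile in every library and the sites of 1 nucleus are grey in the other 4.

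Most of the 5 farthest members were seen in few libraries. Rank did not fall with distance, since members beyond 400 kb had a median mean percentile of 49.2, against 44.7 to 46.6 in the nearer groups. The site farthest from any start was 1828 kb from Efna5, at chr17:61052786-61053032, with peaks in AVPV libraries 2, 3 and 4 at folds of 5.49, 6.57 and 6.24. A site 1666 kb from Brinp3 had a peak in 1 library of each nucleus. A site 1510 kb from Diaph2 on the X chromosome had a perfect element and peaks in arcuate libraries 1 and 3 with folds of 5.64 and 5.54. The exceptions were a site 1536 kb upstream of Got2, with peaks in 7 libraries at the 42.4 to 73.7 percentile, and a site 1455 kb from Olfm4, with peaks in 5 libraries.

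The 37 perfect elements outside near-copies had mean percentiles from 15.9 to 95.4, with a median of 48.8, and those named here were chosen as the highest among sites of 8 libraries. The site 223 kb upstream of Calb1, which encodes the neuronal calcium-binding protein calbindin, was at chr4:15657535-15658129. Its folds were 12.2, 10.7, 9.16 and 8.93 in the arcuate and 13.6, 10.4, 8.14 and 14.8 in the AVPV. The site 57.1 kb upstream of Znrf2 had folds of 13.4, 13.5, 13.1 and 8.93 in the arcuate and 14.4, 15.0, 15.6 and 18.7 in the AVPV. The site 66.4 kb upstream of Ahi1, a gene of the primary cilium, ranked between 53.7 and 91.5, and that 74.7 kb from 4930520P13Rik between 53.8 and 90.0.

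The immunoglobulin κ locus held 17 members. It encodes the light chain of antibodies in B cells through the joining of V and J segments, and the V segments are not transcripts in RefSeq, so the rule took the sites as intergenic although they lie inside the Igk gene record (chr6:67555636-70726754). All 17 lay at segments of the Igkv4 family. A perfect element was present at 12 of them and accounted for 12 of the 49 perfect elements among all members. Element windows of 75 bases, compared in pairs among 16 of the sites, were 78.7% to 100% identical, with a median of 92.0%.

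A separate scan covered the whole annotated segment rather than the summit window, with at most 1 mismatch. Of 33 Igkv4 segments, 28 held such an element and 19 overlapped an ERα region, and all 19 were among the 28. The near-copy group of these sites held 16 members and 2 intergenic sites within 50 kb of a start site. The member at Igkv4-71 was the 1 of the 17 with no element within 100 bp of its summit. Of the 129 other Igkv segments, 9 held such an element and 0 overlapped a region. The 17 members had peaks in 3 to 8 libraries and mean percentiles of 23.3 to 70.3. The strongest, at Igkv4-77, had folds of 8.98, 11.03, 11.1 and 6.13 in the arcuate and 6.01, 6.94, 8.14 and 10.2 in the AVPV. How reads that match several copies were placed is not given in the sources used here, so the values of single copies are uncertain.

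Of the members, 649 had no other member within 50 kb, while 63 groups were pairs and 10 held 3. The largest group held 7 of the Igk sites over 158 kb. There were 4 groups of 4. The first lay between Gm31333 and Myt1l, a neuronal transcription factor gene, on chromosome 12, with 3 members in all 8 libraries. The strongest of these, at chr12:29279499-29280584, had folds of 24.4, 10.5, 16.8 and 11.4 in the arcuate and 17.1, 21.4, 25.0 and 22.9 in the AVPV and no response element. Another lay between 4930405L22Rik and Gm7931 on chromosome 5, where 1 of the 4 members was seen in all 8 libraries and 2 held an element. The group between Adgrd1 and Sfswap had 4 members of 3 libraries each. The last covered 5.14 kb at chr17:39843665-39848807, where RefSeq places the ribosomal RNA-related record Rn18s-rs5, and its folds were among the lowest, from 1.52 to 2.58.

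The gene lists were counted by nearest start site, with no test. The estrogen target and nuclear receptor list was nearest to 7 members (0.845%), against 0.762% of all regions. Of the 7, 5 were in all 8 libraries, as were 14.7% of all members and 23.1% of all regions. Sites of the same gene were counted separately. The 5 included both Pgr sites below, the Brinp2 site described above and a site 135 kb from Brinp2. Pgr, the progesterone receptor gene induced by estradiol, had a site 61.8 kb upstream at chr9:8837605-8838375 and a site 70.6 kb past its start at chr9:8970116-8970754. The upstream site had folds of 11.3, 7.62, 9.77 and 8.66 in the arcuate and 9.15, 9.83, 8.14 and 17.6 in the AVPV and no element. The other had 15.9, 18.8, 11.1 and 8.66 in the arcuate and 11.5, 9.83, 12.5 and 16.7 in the AVPV. The nuclei overlapped at both.

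The list of homeobox and patterning factors was nearest to 13 members (1.57%), against 0.529% of all regions. Of these 13 members, 10 were arcuate sites and 0 AVPV sites. Among all 828 members 37.2% were arcuate, 20.05% AVPV and 36.2% shared sites, and among all regions 32.2%, 15.4% and 45.3%. The 13 members included sites 70.8 kb from Sox11, 115 kb from Foxb1 and 75.2 kb from Tcf7l2, which had no peak in any AVPV library. The Sox11 site had folds of 13.2, 6.16, 12.7 and 7.94 in the arcuate libraries. The axon guidance and adhesion list was nearest to 34 members (4.11%), against 1.78% of all regions, with 11 arcuate, 12 AVPV and 9 shared sites. Sites 61.5 kb upstream of Dscam, 635 kb from Efnb2, an ephrin ligand, and 93.0 kb upstream of Slitrk1 were in all 8 libraries, with mean percentiles of 79.5, 72.3 and 71.1.

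The peptide and receptor list was nearest to 12 members (1.45%), against 0.762% of all regions. Beside the Nmur2 site, these included a site 220 kb upstream of Sstr1, a somatostatin receptor, with peaks in arcuate libraries 1, 2 and 3 at folds of 11.5, 8.07 and 9.44. A site 323 kb upstream of Oprm1, the μ opioid receptor, was seen in 7 libraries. The ion channel list was nearest to 16 members (1.93%), against 1.08% of all regions. A site 505 kb from the GABA receptor subunit gene Gabrg1 was in 4 libraries and a site 84.7 kb upstream of the kainate receptor gene Grik1 in 2. The growth factor list was nearest to 8 members (0.966%), against 0.720% of all regions, including sites near Bmp2, Dusp6 and Fzd8 in 2, 2 and 5 libraries. Genes in wide intergenic gaps are nearest to a distant site more often, so the shares are not adjusted for gap length.

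Known enhancers in the RefSeq record overlapped 4 members, a set chosen after the data were seen. The overlap was not counted for the other regions, so the number cannot be set against their share. Of the 4 enhancers, 3 came from the VISTA collection of elements tested in transgenic embryos. Element mm457, 576 kb from Gm20740 at chr15:62903089-62903421, was in all 8 libraries with folds of 7.55, 9.46, 8.07 and 11.9 in the arcuate and 6.54, 6.36, 5.32 and 5.68 in the AVPV. Its arcuate percentiles were all above its AVPV percentiles, as at 14.2% of all regions seen in 8 libraries. Elements mm1295, 72.6 kb upstream of Irf2bp2, and mm898, 276 kb from Gm51281, were in 3 and 2 libraries. An enhancer upstream of Tgfbr2 was in arcuate libraries 1, 2 and 3.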

How the data were processed

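ERα ChIP-seq peak lists of 8 libraries, 4 of the arcuate and 4 of the AVPV, were analysed. Per the labels and methods, the authors sequenced 75-nt single-end reads, aligned them to mm10 with Bowtie2 2.5.0 and called peaks with MACS2 2.2.7.1 in each library. Every deposited peak had a q-value of at most 4.93%. Whether the input was used in calling is not given in the sources used here. The deposited fold enrichment is the authors' ratio over the local background. It ran from 1.26 to 91.1 and was converted to a percentile within each library's list, since lists have their own backgrounds. The deposited −log10 q-value was used for a stricter alternative. The deposited −log10 p-value and score were not used.

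Regions were annotated with 45756 curated RefSeq transcripts of GRCm38.p6 in the order promoter (from 1 kb before a start to 100 bp past it), transcript end, exon, intron and intergenic. Sequence windows of 201 bases were centred on summits. Near-copies were regions whose windows shared at least 40 20-mers with another region. Nuclei were compared by exact two-sided permutation tests of 1 value a library, and classes by exact two-sided sign-flip tests of within-library differences, with Benjamini-Hochberg adjustment. The smallest possible p is 0.0286 for the former and 0.00781 for the latter, which rises where within-library differences are 0. The replicate numbers were not treated as pairs. Members and lists were chosen with earlier results of these data known.

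Sites named were the 6 strongest of 8 libraries, 5 of each nucleus called in 4 libraries against 0, the 5 farthest, the largest groups (all groups of 4, which tied), the 3 strongest for each gene list, 5 with perfect elements and 3 on each side of 50 kb. A site named by this rule is not reported here. The Igk and RefSeq enhancer sites, the other sites with non-overlapping ranks, the near-copy filter and GENCODE M21 were added after the data were seen. The methods were tested on simulated data with known answers. Python 3.11.15, numpy 2.4.6, scipy 1.17.1, pysam 0.24.0 and matplotlib 3.10.9 were used.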

Additional observations from a re-analysis of the deposited data

Results flagged for a closer look

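Of 36 groups of 4 libraries examined with Dixon's ratio (the gap to the nearest library over the whole range), 4 had a value past its 95% limit, which chance gives in about 1 in 20 groups. A small gap can pass where the other libraries are close together. AVPV library 4 had peaks at 501 members, while the other AVPV libraries had 354 to 379. The CpG observed over expected ratio of member peaks was 0.185 in arcuate library 4 and 0.164 to 0.167 in the other arcuate libraries. The RFX motif was in 0.635% of member windows of arcuate library 4 and in 0.157% to 0.219% in the other arcuate libraries. By site it was at only 2 members, so these shares rest on very few windows. The E-box CAGATG was in 12.4% of member windows of AVPV library 4 and in 13.2% to 13.3% in the other AVPV libraries. The difference between nuclei did not pass for any within-library effect (7 within-library contrasts, exact permutation tests, lowest p = 0.143).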

How the results depend on the processing

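The higher element share of members than of near intergenic sites and the higher rank of members with an element kept their direction and their side of the threshold under all 18 alternatives run for each. The strength difference from near intergenic sites no longer passed beyond 100 kb (1.52 points), without near-copies (2.65) and with GENCODE M21 (1.44), by exact sign-flip permutation tests. The other comparisons between nuclei did not pass under any alternative run. For the 14 sequence features, none could pass unless most of them separated the nuclei completely. The difference between nuclei in element share, -0.506 points, changed sign with at least 3 libraries (0.561), beyond 100 kb (0.0507), with predicted RefSeq models (1.96), without near-copies (0.0329) and with GENCODE M21 (1.33), and ran from -1.72 to 0.612 when single libraries were left out. That in the share of peaks changed sign when only peaks in regions of at least 2 libraries were counted (0.0102), and ran from -2.27 to 0.358 without single libraries.

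Of 828 members, 60 were called in all libraries of 1 nucleus alone. This became 29 of 467 with predicted models and 24 of 321 with GENCODE M21. It was 64 to 124 without single libraries, a looser criterion, with 124 without arcuate library 4. The 34 members with non-overlapping ranks became 16 beyond 100 kb, 18 with predicted models and 8 with GENCODE M21. Those settings left 553, 467 and 321 members. The 6 features that differed from near intergenic sites became 0 to 5 without single libraries, with 0 without arcuate library 1 or 2 and 5 without any other library. Smaller counts over fewer members do not show a smaller share, and the cause of these changes was not tested.

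Pairing by replicate number is not stated in the sources used here. Same-number correlations ran from -0.115 to 0.0802 and the others from -0.163 to 0.181, and 1 arcuate library was closest to its own number. Correlations this weak cannot show whether the numbers pair the libraries. With the replicate block, exact sign-flip tests over 4 pairs, which allow no p below 0.125, gave p = 1 for the share of peaks, 0.375 for members with a peak and 0.75 for the element share, with unchanged differences of -0.965, 93.2 and -0.506. Read depth is not in the lists, so sites missed at low depth could not be counted.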
